A study of Mus musculus with 4 samples.

Results

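Muscle stem cells are the Pax7-expressing precursors that lie beside the fibres of skeletal muscle and mostly rest outside the cell cycle. The genes described here are 50 genes of the G1/S transition and of S phase, given as a list of symbols and found by symbol in the deposited expression table. All 50 were among the 11603 genes of that table. The list was proposed with earlier results of these data known. There were 2 libraries labelled conditional Hairless knockout and 2 control libraries. The cells came from hindlimb muscle of male C57BL/6 mice aged 4 to 5 months. They were sorted as VCAM1-positive and negative for CD31, CD45 and Sca1, and their RNA was sequenced after full-length cDNA synthesis from 10 ng of total RNA. The labels name neither the Cre driver or inducer of the deletion nor the alleles that the control mice carried. Separate animals are not stated for the libraries of a group, and the p-values below cover the spread between these libraries, which may be technical.

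DNA replication begins when the origin recognition complex (ORC), Cdc6 and Cdt1 load the MCM2-7 helicase onto origins in G1 phase. Cyclin E with Cdk2 and other kinases then drive the helicase into its active form with Cdc45 and the GINS complex. DNA polymerases follow with the sliding clamp PCNA, while ribonucleotide reductase and thymidylate synthase supply deoxynucleotides. Many of these genes are transcribed under E2F factors, which the retinoblastoma family holds back in resting cells. Resting muscle stem cells do not replicate DNA until injury or another stimulus sends them into the cycle, and ribonucleotide reductase and PCNA also serve DNA repair.

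Values are RPKM (reads scaled to exon length and to a library size set by the authors), so they can be compared between genes. The libraries held 34101213 and 21757211 reads on the listed genes in knockout, against 26990809 and 22577330 in control. Hr, the targeted gene, had 7.15 and 7.90 RPKM in the knockout libraries, against 9.28 and 8.94 RPKM in the control libraries. The transcript was not lost, so every direction below rests on the sample labels. All 8 muscle stem cell markers examined were listed and summed to 3905 and 4155 RPKM in knockout, against 2971 and 2432 RPKM in control, most of it Sdc4. Pax7 overlapped, with 9.03 and 13.1 RPKM in knockout, against 8.23 and 12.9 RPKM in control, while Itga7 had 61.9 and 50 RPKM in knockout, against 90.8 and 118.4 RPKM in control. Ly6a, which encodes the Sca1 gated against in the sort, had 77.4 and 80.7 RPKM in knockout, against 47.9 and 49.5 RPKM in control. No listed marker was at 0 in every library, while Pdgfra, Pi16, Cd3e, Cd79a, Myh4, Tnnc2, Sox10 and S100b were not analysed here. For 5 of 7 myofibre markers the summed RPKM was 50.03 and 48.32 in knockout, against 162.5 and 684.9 in control, so control 2 stood apart. In control 1, Acta1 made up 143.6 RPKM of the sum, and Ckm, Tnnt3, Pvalb and Mylpf had 3.63, 5.58, 5.22 and 4.48 RPKM. The knockout values of these last 4 genes ran from 2.41 to 5.86 RPKM. Endothelial markers (7 of 7) summed to 44.9 and 68.1 RPKM in knockout, against 64.0 and 83.1 RPKM in control. Fibro-adipogenic markers (5 of 7) summed to 460.3 and 301.9 RPKM in knockout, against 272.4 and 227.8 RPKM in control. Dpt alone had 322.7 RPKM in knockout 1, and Dpt, Dcn, Lum and Smoc2 each overlapped between groups. Blood markers (5 of 7) summed to 11.9 and 18.3 RPKM in knockout, against 16.4 and 16.01 RPKM in control, with Ptprc, which encodes CD45, at or below 0.0399 RPKM in each library. Pericyte and smooth muscle markers (5 of 5) summed to 18.5 and 38.1 RPKM in knockout, against 23.2 and 22.9 RPKM in control. Schwann cell markers (2 of 4) summed to 4.32 and 10.8 RPKM in knockout, against 11.0 and 13.2 RPKM in control. The part of these cells in the results below was not tested.

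The replication genes did not move as 1 block in the knockout libraries. Ribonucleotide reductase, the clamp Pcna and the helicase cofactor Gins1 were higher. The helicase subunits Mcm2 and Mcm6, the helicase activation factor Mcm10, the G1/S regulators Cdk2, Ccne2 and E2f1, and the fork and chromatin factors Lig1, Pole2 and Chaf1b were lower. These 4 and 9 members, 8% higher and 18% lower, are those that the authors' deposited table calls at an adjusted p below 0.05, with the direction taken from the group means. By the same rule the authors' deposited table calls 3.59% of its genes higher and 4.26% lower. In each of the 13 members both knockout libraries lay on the same side of both control libraries. The 13 were called on these same 4 libraries, so this separation is not separate support. Over all genes, both knockout libraries lay above both control libraries in 25.0% and below them in 26.2%. In bulk RNA, fewer cells in S phase and less RNA per cell cannot be told apart.

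**Figure D1:**
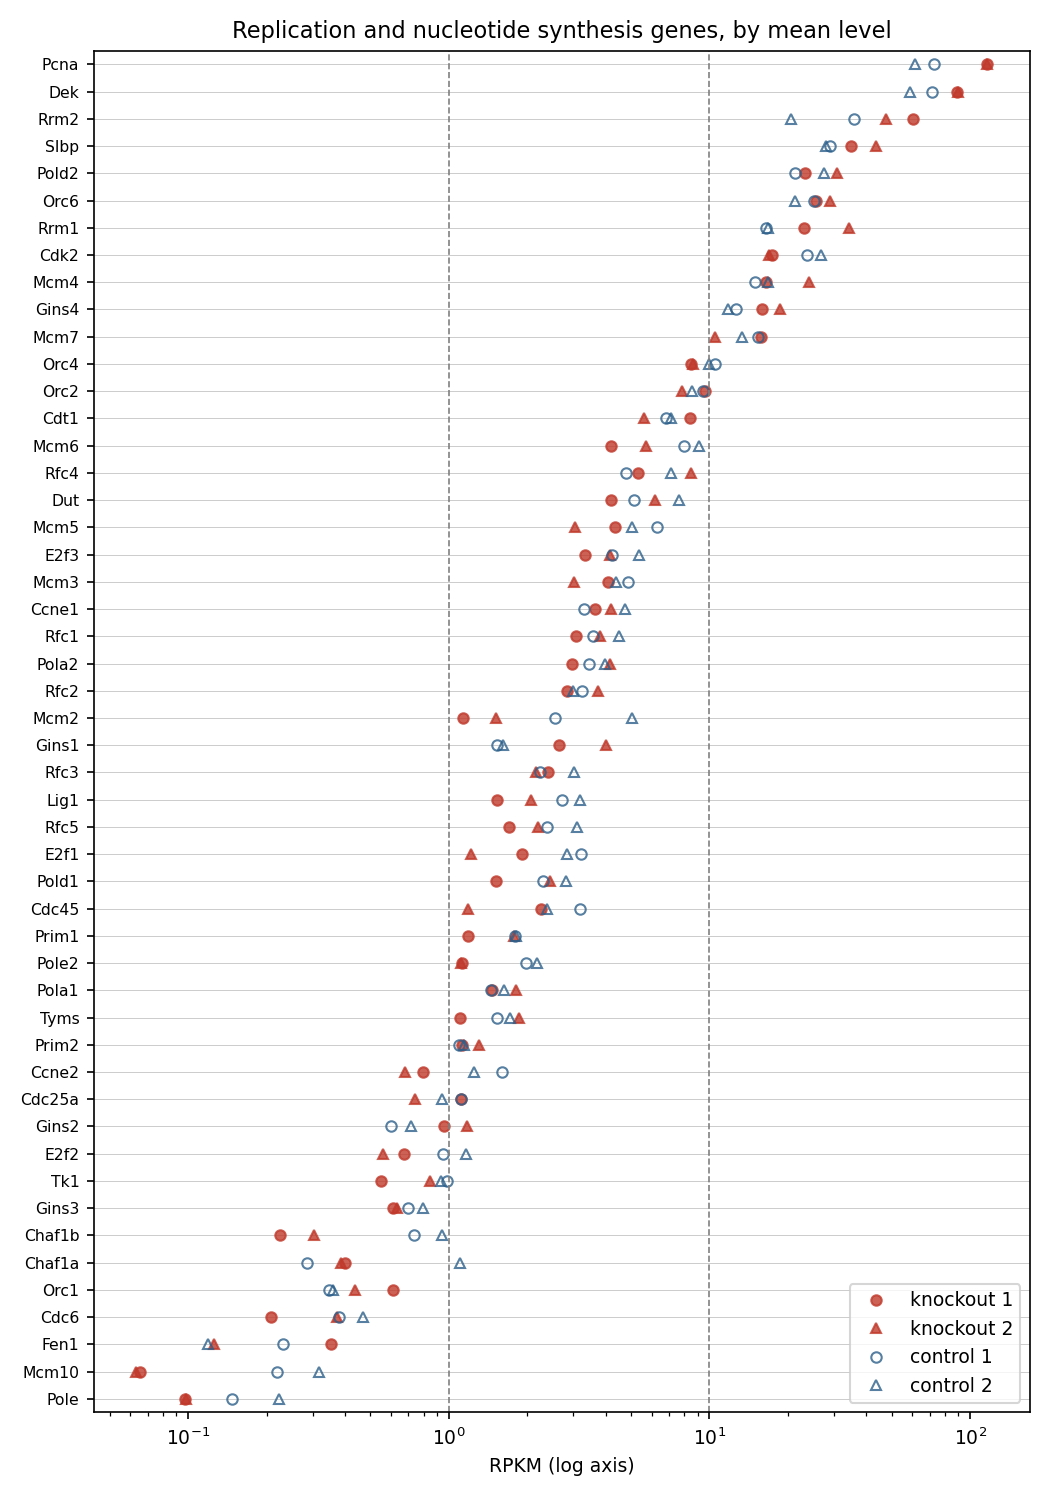
RPKM of the 50 members in each library (log axis), ordered by mean over the 4 libraries; filled red symbols are knockout, open blue symbols control, circles replicate 1 and triangles replicate 2, and dashed lines mark 1 and 10 RPKM. Pcna heads the order with both knockout values at 116 RPKM, and Pole ends it with a mean of 0.141 RPKM.

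Limma on log2(RPKM + 0.5), adjusted over all genes, called 0 members in either direction, and 0.00862% of all genes (1 gene). Limma-voom on the recovered reads also called 0 members, and 0.0948% of all genes (11 genes). At an unadjusted p under 0.05, limma counted 8 members higher and 11 lower, which is 16% and 22% of the members. Over all genes these shares were 10.3% and 7.69%. Scaled by the listed reads in place of the authors' library sizes, which moves the median of all genes by -0.19, the counts were 3 higher and 16 lower, against 3.70% and 19.2% of all genes. Both knockout libraries lay above both control libraries in 10 members (20%) and below them in 21 members (42%), while this held for 25.0% and 26.2% of all genes. The share of members above control was therefore no higher than over all genes. In the other 19 members the groups overlapped. The median log2 change of the members was -0.16, against -0.01 over all genes. When control 2, the library with the high myofibre sum, was left out, the counts at an unadjusted p under 0.05 were 2 higher and 6 lower, against 4.19% and 3.06% of all genes in that fit. All 13 members called in the authors' deposited table kept their direction when scaled by the listed reads. Leaving out 1 library could not change their direction, since their groups did not overlap.

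Level and direction went together. The 11 abundant members, with a mean of 10 RPKM or more over the 4 libraries, had a median knockout-to-control ratio of 1.37. Of them, 9 had a higher mean in knockout, against 2947 of all 4580 genes at that level. Of these 11, the authors' deposited table called Pcna, Rrm2 and Rrm1 higher (27.3%) and Cdk2 lower (9.09%), against 5.52% and 1.86% of all genes at that level. The 27 members of intermediate level, from 1 to under 10 RPKM, had a median ratio of 0.821. A lower mean in knockout was found in 21, against 3234 of all 5427 genes at that level. Of these 27, the authors' deposited table called Gins1 higher (3.7%) and Mcm6, Mcm2, Lig1, E2f1, Pole2 and Ccne2 lower (22.2%), against 2.67% and 3.91% of all genes at that level. The 12 members under 1 RPKM had a median ratio of 0.706, 9 of them with a lower mean in knockout, as in 1081 of all 1596 genes at that level. Chaf1b and Mcm10 (16.7%) were called lower in the authors' deposited table, near the 12.3% of all such genes. Over all listed genes the median ratio also followed level. It was 1.09 at 10 RPKM or more, 0.940 at intermediate level and 0.828 under 1 RPKM. The Spearman correlation of mean RPKM with the ratio was 0.473 across the 50 members and 0.337 across 11572 genes with reads in both groups, as a description, since genes of the same libraries share depth and scaling. Pcna, Dek and Rrm2 alone made up 50.1% and 45.1% of the summed RPKM of the members in knockout, against 40.1% and 33.1% in control.

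**Figure D2:**
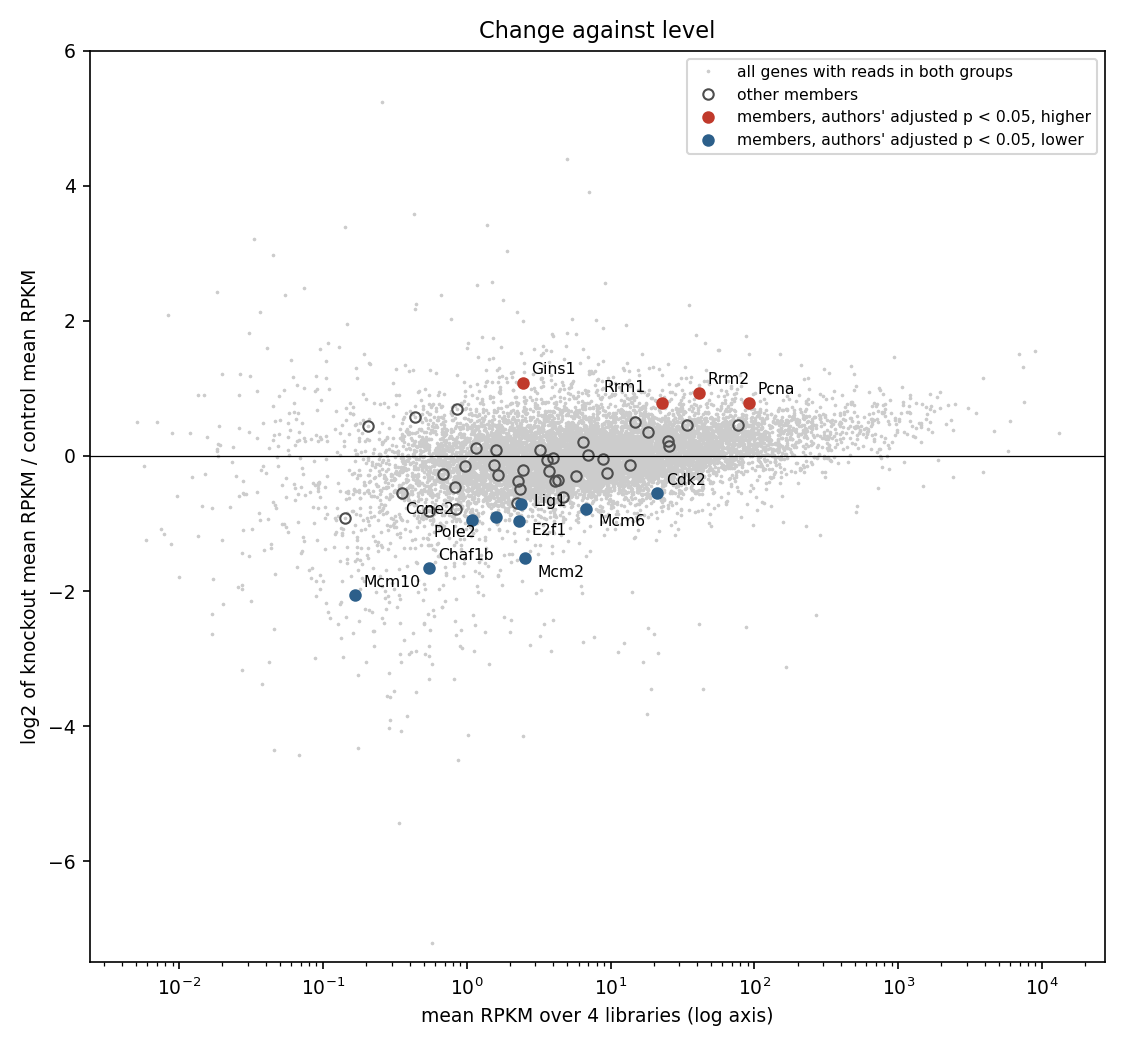
Log2 ratio of the knockout mean to the control mean in RPKM, against the mean over the 4 libraries (log axis); grey points are all genes with reads in both groups, circles are members, and filled circles carry a call in the authors' deposited table. The called members at the right (Pcna, Rrm2, Rrm1) lie above 0 and those at the left (Mcm10, Chaf1b) lie below, and the grey cloud also tilts upward with level.

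Ribonucleotide reductase, which turns ribonucleotides into deoxynucleotides, had more transcript of both subunits in knockout. Rrm2, the small subunit whose level follows S phase (Entrez gene 20135, mm10 chromosome 12 from 24708241 to 24714146 on the plus strand), had 60.5 and 47.4 RPKM in knockout, against 35.9 and 20.52 RPKM in control. The groups did not overlap, although knockout 2 and control 1 were closer to each other than control 1 was to control 2. The ratio of means was 1.91, with a log2 change of 0.97, a standard error (SE) of 0.29, a limma adjusted p of 0.202 and an adjusted p of 0.00455 in the authors' deposited table. Without control 2 the log2 change of Rrm2 was 0.57. Rrm1, the large catalytic subunit (chromosome 7, 102441695 to 102469771, plus strand), had 23.1 and 34.2 RPKM in knockout, against 16.4 and 16.7 RPKM in control. Its 2 control values were nearly equal and both knockout values lay above them, knockout 2 farthest. The log2 change was 0.74 with an SE of 0.21, a limma adjusted p of 0.195 and an adjusted p of 0.0084 in the authors' deposited table. Without knockout 2 it was 0.465. Rrm2 was above Rrm1 in each library, with 2.62 and 1.39 times its RPKM in knockout, against 2.19 and 1.23 times in control. That ratio differed more between replicate numbers than between groups.

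The remaining nucleotide enzymes did not share this difference. Tyms, thymidylate synthase, had 1.10 and 1.86 RPKM in knockout, against 1.53 and 1.72 RPKM in control, and the groups overlapped. Dut, the dUTPase that keeps uracil out of DNA, had 4.18 and 6.19 RPKM in knockout, against 5.12 and 7.61 RPKM in control. Tk1, the cytosolic thymidine kinase of proliferating cells, had 0.551 and 0.843 RPKM in knockout, against 0.987 and 0.931 RPKM in control. Tk1 was lower in both knockout libraries and Dut overlapped between groups. The authors' deposited table called none of these 3 genes, and 3.59% of all genes higher and 4.26% lower.

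Pcna, the ring that tethers polymerases to DNA (Entrez gene 18538, chromosome 2, 132249162 to 132253314, minus strand), was the most abundant member. It had 116.3 and 116.0 RPKM in knockout, against 72.5 and 61.7 RPKM in control. The knockout libraries were nearly equal and both stood above the control libraries. The ratio of means was 1.73, with a log2 change of 0.79, an SE of 0.14, a limma adjusted p of 0.148 and an adjusted p of 0.0037 in the authors' deposited table. The annotation also holds the processed copies Pcna-ps1 and Pcna-ps2, and the sources used here do not give how shared reads were counted. The loader that opens the ring did not follow. Rfc1, the large loader subunit, had 3.09 and 3.79 RPKM in knockout, against 3.56 and 4.50 RPKM in control. Among Rfc1 to Rfc5 the ratio of means ran from 0.712 for Rfc5 to 1.16 for Rfc4. None was called in the authors' deposited table, where 3.59% of all genes were called higher and 4.26% lower. Rfc5 had 1.70 and 2.20 RPKM in knockout, against 2.38 and 3.10 RPKM in control, and was the 1 loader subunit whose groups did not overlap. Pcna stood at 37.7 and 30.6 times the RPKM of Rfc1 in knockout, against 20.4 and 13.7 times in control, so these groups also did not overlap.

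The promoters of 42 members were matched by Entrez ID in a RefSeq table of GRCm38.p6, each from 250 bases before the transcript start to 50 after. They were searched on both strands for 4 letter forms of the E2F site (TTTCCCGC, TTTGGCGC, TTTCGCGC and TTTGCCGC), the CCAAT box and the GC box (GGGCGG). They were also searched for 2 forms of the cell cycle homology region (TTTGAA and TTCGAA), which is known from late cell cycle genes. An E2F form was present in 17 of the 42 members (40.5%), in 4.93% of the 9271 listed genes that had a promoter and in 2.6% of all 27025 promoter genes. CCAAT was present in 64.3% of the members and 43% of listed genes, the GC box in 81% and 70.7%, and the cell cycle forms in 23.8% and 16.2%. Of the members called lower in the authors' deposited table, 4 of 8 held an E2F form (Cdk2, Mcm6, Lig1 and Pole2). Of those called higher, 0 of 3 did (Pcna, Rrm2 and Rrm1), while all 3 held CCAAT. A match describes letters in this window and not a bound site, and a missing match says nothing of the factor.

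The upstream bases of 5 promoters are shown, because Pcna and Rrm2 were the most abundant members called higher in the authors' deposited table and Cdk2, Mcm6 and Mcm2 the most abundant called lower that had a promoter. Each runs 5′ to 3′ on the strand of its gene, leaves out bases inside the exons of the deposited table, and has E2F forms, CCAAT (or ATTGG) and GC boxes in capitals. Pcna is chr2:132253315-132253430 on the minus strand and holds 1 GC box in this stretch, with its CCAAT box in the 134 bases left out. Rrm2 is chr12:24708004-24708240 on the plus strand, with 1 CCAAT and 2 GC boxes.
Pcna: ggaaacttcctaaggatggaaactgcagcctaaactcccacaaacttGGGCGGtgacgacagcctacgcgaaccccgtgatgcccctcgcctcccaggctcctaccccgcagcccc
Rrm2: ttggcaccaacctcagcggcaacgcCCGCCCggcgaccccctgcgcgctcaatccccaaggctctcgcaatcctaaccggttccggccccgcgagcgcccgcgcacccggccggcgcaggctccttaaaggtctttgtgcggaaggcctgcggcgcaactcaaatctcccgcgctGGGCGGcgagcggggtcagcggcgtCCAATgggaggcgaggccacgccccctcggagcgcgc

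Among the members called lower, Cdk2 is chr10:128705052-128705301 on the minus strand, with 1 E2F form, 1 CCAAT and 5 GC boxes. Mcm6 is chr1:128359706-128359955 on the minus strand, with 3 E2F forms of which a pair overlaps, 2 CCAAT and 1 GC box. Mcm2 is chr6:88898781-88899030 on the minus strand, with 0 E2F forms, 1 CCAAT and 2 GC boxes.
Cdk2: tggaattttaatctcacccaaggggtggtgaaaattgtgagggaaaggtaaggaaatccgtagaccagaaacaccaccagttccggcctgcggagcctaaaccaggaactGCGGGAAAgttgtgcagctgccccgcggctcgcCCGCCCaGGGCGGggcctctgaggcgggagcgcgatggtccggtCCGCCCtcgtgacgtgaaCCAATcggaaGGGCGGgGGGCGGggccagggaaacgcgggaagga
Mcm6: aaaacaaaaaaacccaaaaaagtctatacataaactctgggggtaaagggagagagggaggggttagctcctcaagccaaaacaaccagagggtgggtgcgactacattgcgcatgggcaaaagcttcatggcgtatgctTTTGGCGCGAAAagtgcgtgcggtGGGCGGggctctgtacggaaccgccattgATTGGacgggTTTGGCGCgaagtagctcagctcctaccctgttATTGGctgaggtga
Mcm2: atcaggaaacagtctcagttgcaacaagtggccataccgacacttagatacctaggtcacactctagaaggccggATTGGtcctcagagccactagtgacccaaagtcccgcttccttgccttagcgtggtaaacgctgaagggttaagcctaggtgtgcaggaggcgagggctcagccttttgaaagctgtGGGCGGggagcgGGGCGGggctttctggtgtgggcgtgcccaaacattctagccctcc

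The MCM2-7 helicase is a ring with 1 copy of each subunit, yet its transcripts stood at unequal levels and moved unequally. Mcm2 (chromosome 6, 88883475 to 88898780, minus strand) had 1.14 and 1.52 RPKM in knockout, against 2.55 and 5.03 RPKM in control. The knockout pair lay below the control pair, and control 2 was well above control 1. The control mean was 2.85 times the knockout mean, with a log2 change of -1.18, an SE of 0.31, a limma adjusted p of 0.189 and an adjusted p of 4.41e-05 in the authors' deposited table. Without control 2 the log2 change was -0.75. Mcm6 (chromosome 1, 128331590 to 128359664, minus strand) had 4.18 and 5.73 RPKM in knockout, against 7.96 and 9.13 RPKM in control. Its groups did not overlap, with a log2 change of -0.74, an SE of 0.21, a limma adjusted p of 0.19 and an adjusted p of 0.0077 in the authors' deposited table. Mcm5 had 4.32 and 3.06 RPKM in knockout, against 6.28 and 5.03 RPKM in control. Mcm3 had 4.10 and 3.02 RPKM in knockout, against 4.86 and 4.38 RPKM in control. Both were below control in each knockout library, without a call in the authors' deposited table. The 2 most abundant subunits overlapped between groups. Mcm4 had 16.5 and 24.1 RPKM in knockout, against 14.9 and 16.8 RPKM in control, and Mcm7 had 15.7 and 10.52 RPKM in knockout, against 15.4 and 13.4 RPKM in control. Mcm4 and Mcm7 together made up 70.1% and 72.2% of the summed RPKM of the 6 subunits in knockout, against 58.3% and 56.1% in control. The highest subunit exceeded the lowest 14.5 and 15.9 times in knockout, against 6.03 and 3.83 times in control. Exons of Mcm7 also contain the microRNA genes Mir25 and Mir93.

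**Figure D3:**
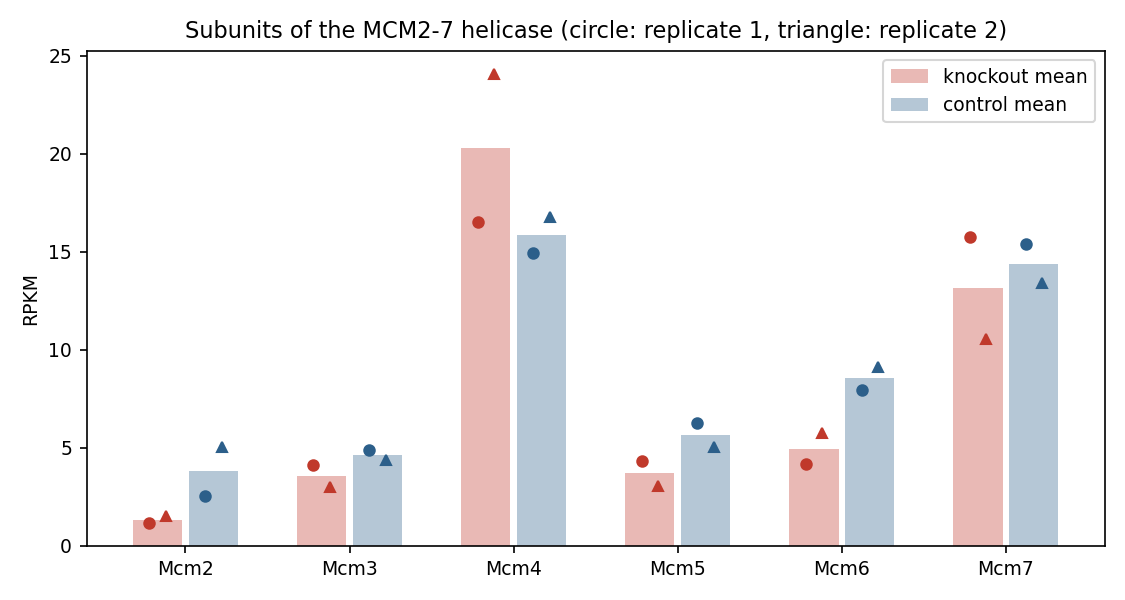
RPKM of the 6 subunits of the MCM2-7 helicase; bars are group means with knockout left of control, circles are replicate 1 and triangles replicate 2. Mcm4 and Mcm7 stand highest and overlap between groups, whereas the knockout values of Mcm2, Mcm3, Mcm5 and Mcm6 lie below their control values.

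Helicase activation factors split in both directions, and in none of the 6 did the groups overlap. Both knockout libraries lay above both control libraries in 3 and below them in 3, against 25.0% and 26.2% of all genes. Gins1, a GINS subunit (Entrez gene 69270, chromosome 2, 150905400 to 150931280, plus strand), had 2.66 and 4.01 RPKM in knockout, against 1.54 and 1.61 RPKM in control. These values rest on 104 and 100 reads in knockout, against 54 and 51 reads in control. With a ratio of means of 2.12 it had the largest ratio among the members, with a log2 change of 0.86, an SE of 0.22, a limma adjusted p of 0.182 and an adjusted p of 0.00713 in the authors' deposited table. Its partners Gins4 and Gins2 were also above control in both knockout libraries. Gins4 had 16.0 and 18.7 RPKM in knockout, against 12.6 and 11.8 RPKM in control, and Gins2 had 0.955 and 1.17 RPKM in knockout, against 0.600 and 0.713 RPKM in control. Neither was called in the authors' deposited table, and 67.3% of the exon bases of Gins2 are shared with Gse1 on the opposite strand. Gins3, the fourth subunit, had 0.610 and 0.631 RPKM in knockout, against 0.697 and 0.794 RPKM in control, so it went the other way by a small amount. Gins4 stood at 6.01 and 4.66 times the RPKM of Gins1 in knockout, against 8.21 and 7.32 times in control.

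Mcm10 and Cdc45, which join the helicase as origins fire, were lower. Mcm10 (chromosome 2, 4989714 to 5012791, minus strand) had 0.0655 and 0.0633 RPKM in knockout, against 0.219 and 0.318 RPKM in control. That is 13 and 8 reads in knockout, against 39 and 51 reads in control, so each value carries a large counting error. Its control mean was 4.17 times the knockout mean, the largest such ratio among the members. The log2 change was -0.44 with an SE of 0.12, compressed by the pseudocount at this level, and -1.97 with limma-voom on reads. The limma adjusted p was 0.189, and the adjusted p in the authors' deposited table was 1.76e-05. Cdc45 had 2.25 and 1.19 RPKM in knockout, against 3.18 and 2.38 RPKM in control, with no call in the authors' deposited table (adjusted p of 0.101).

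Of 6 origin recognition and licensing members, 0 were called in the authors' deposited table, where 3.59% of all genes were called higher and 4.26% lower. These members went both ways, from a ratio of 0.685 for Cdc6 to 1.49 for Orc1. In 4 of the 6 the groups did not overlap. Both knockout libraries lay above control in 33.3% and below in 33.3%, against 25.0% and 26.2% of all genes. The group median log2 change was -0.03. Orc6, the most abundant ORC subunit measured, had 25.5 and 28.9 RPKM in knockout, against 25.3 and 21.3 RPKM in control. Orc4 had 8.51 and 8.64 RPKM in knockout, against 10.52 and 9.96 RPKM in control. Orc6 lay slightly above and Orc4 slightly below control in both knockout libraries, and Orc6 had a log2 change of -0.008 when scaled by the listed reads. Orc2 and Cdt1, the MCM loader that geminin inhibits, overlapped between groups, with ratios of means of 0.974 and 1.01. Orc1 and Cdc6, which bind ATP during loading, were low, with means of 0.439 and 0.357 RPKM. Orc1 had 0.612 and 0.437 RPKM in knockout, against 0.347 and 0.358 RPKM in control, and Cdc6 had 0.207 and 0.372 RPKM in knockout, against 0.379 and 0.467 RPKM in control. Their groups did not overlap, in opposite directions, at 25 to 55 reads per library.

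Of the 8 polymerase and primase genes, Pole2 was the 1 called in the authors' deposited table, as lower (12.5%). Over all genes that table called 3.59% higher and 4.26% lower. Pole2, the second subunit of the leading-strand polymerase epsilon (chromosome 12, 69201779 to 69228190, minus strand), had 1.12 and 1.11 RPKM in knockout, against 1.99 and 2.18 RPKM in control. Replicates were close in both groups and the groups did not overlap, on 31 to 78 reads per library. Gm49384 on the same strand shares 14.5% of the exon bases of Pole2. The log2 change was -0.67 with an SE of 0.15, a limma adjusted p of 0.172 and an adjusted p of 0.0186 in the authors' deposited table. Pole, its catalytic subunit and the member of lowest level, had 0.0972 and 0.0982 RPKM in knockout, against 0.147 and 0.223 RPKM in control, with an adjusted p of 0.0635 in the authors' deposited table. Pold2, an accessory subunit of polymerase delta, was the most abundant polymerase gene among the members, with 23.2 and 30.9 RPKM in knockout, against 21.2 and 27.4 RPKM in control. Its groups overlapped, as did those of Pold1, Pola1, Pola2 and Prim2, with ratios of means from 0.777 to 1.11. Prim1, the catalytic primase subunit, had 1.18 and 1.78 RPKM in knockout, against 1.79 and 1.81 RPKM in control.

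Lig1, the ligase that joins Okazaki fragments, had 1.53 and 2.07 RPKM in knockout, against 2.73 and 3.18 RPKM in control. Both knockout libraries lay below both control libraries. The log2 change was -0.59 with an SE of 0.20, a limma adjusted p of 0.225 and an adjusted p of 0.0182 in the authors' deposited table. Fen1, the flap nuclease of the same step, had 0.352 and 0.126 RPKM in knockout, against 0.231 and 0.119 RPKM in control. It rested on 22 and 5 reads in knockout, against 13 and 6 reads in control. An antisense gene covers 78.8% of its exon bases, and whether counting used strand is not stated, so its level is uncertain.

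All 7 regulators of the G1/S transition had a lower mean in knockout, as did 5948 of all 11603 genes. Their ratios ran from 0.515 for E2f1 to 0.975 for Ccne1, and the group median log2 change was -0.48. The authors' deposited table called 3 of the 7 lower (42.9%), against 4.26% of all genes. Both knockout libraries lay below both control libraries in 71.4% of the 7, against 26.2% of all genes. For Ccne1 and Cdc25a the sign depended on the library left out, with log2 changes from -0.249 to 0.217 and from -0.294 to 0.083. Cdk2, the kinase partner of cyclin E (Entrez gene 12566, chromosome 10, 128697939 to 128705051, minus strand), had 17.3 and 16.97 RPKM in knockout, against 23.6 and 26.7 RPKM in control. It was the most abundant regulator and the groups stood apart, with a log2 change of -0.54, an SE of 0.14, a limma adjusted p of 0.189 and an adjusted p of 0.036 in the authors' deposited table. Ccne2, encoding cyclin E2 (chromosome 4, 11191351 to 11204779, plus strand), had 0.798 and 0.679 RPKM in knockout, against 1.604 and 1.247 RPKM in control. Its log2 change was -0.63 with an SE of 0.17, a limma adjusted p of 0.186 and an adjusted p of 0.00758 in the authors' deposited table. Ints8 on the opposite strand shares 17.4% of the exon bases of Ccne2. Ccne1, encoding cyclin E1, had 3.64 and 4.18 RPKM in knockout, against 3.29 and 4.73 RPKM in control, and overlapped fully. Ccne1 was thus 4.56 and 6.16 times the RPKM of Ccne2 in knockout, against 2.05 and 3.79 times in control.

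The activator E2F genes lay below control in both knockout libraries. E2f1 (chromosome 2, 154559407 to 154569892, minus strand) had 1.90 and 1.22 RPKM in knockout, against 3.21 and 2.84 RPKM in control. E2f2 had 0.674 and 0.561 RPKM in knockout, against 0.954 and 1.17 RPKM in control. E2f3, the most abundant of them, had 3.34 and 4.15 RPKM in knockout, against 4.24 and 5.39 RPKM in control. E2f1 was the 1 with a call in the authors' deposited table, at an adjusted p of 0.0043, with a log2 change of -0.79, an SE of 0.22 and a limma adjusted p of 0.189. For E2f3 the upper knockout value and the lower control value were nearly equal. Cdc25a, the phosphatase that activates Cdk2, had 1.11 and 0.744 RPKM in knockout, against 1.12 and 0.938 RPKM in control, and its groups overlapped.

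Histone supply and chromatin assembly genes again split by level. Dek, a chromatin-binding protein and the second most abundant member, had 88.7 and 89.5 RPKM in knockout, against 71.2 and 58.6 RPKM in control. Slbp, which binds the stem-loop of replication-dependent histone mRNA, had 34.9 and 43.4 RPKM in knockout, against 29.0 and 27.9 RPKM in control. Both were above control in each knockout library, with log2 changes of 0.46 and 0.45, limma adjusted p values of 0.222 and 0.241, and no call in the authors' deposited table. Chaf1b, a subunit of the CAF-1 complex that places histones behind the fork (chromosome 16, 93883901 to 93906115, plus strand), had 0.225 and 0.304 RPKM in knockout, against 0.733 and 0.939 RPKM in control. That is 29 and 25 reads in knockout, against 85 and 98 reads in control, and the groups were far apart. The control mean was 3.16 times the knockout mean, with a log2 change of -0.80, an SE of 0.15, a limma adjusted p of 0.147 and an adjusted p of 1.8e-06 in the authors' deposited table. Chaf1a, the large subunit of the same complex, had 0.398 and 0.386 RPKM in knockout, against 0.287 and 1.10 RPKM in control. Its control libraries differed more from each other than from the knockout libraries.

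**Figure D4:**
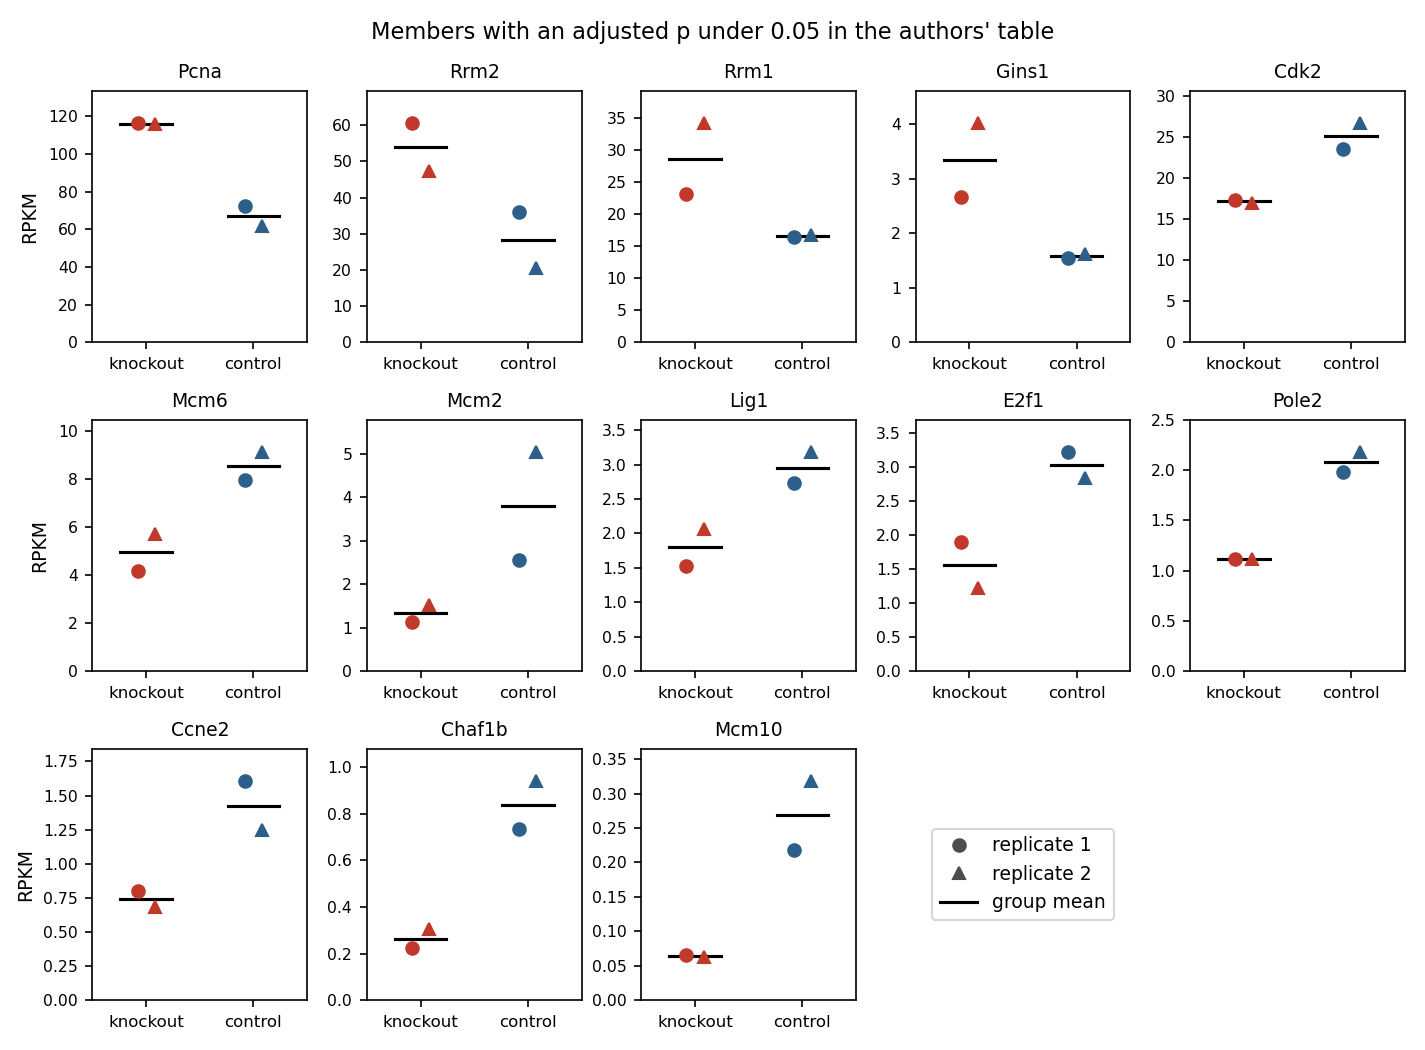
RPKM of the 13 members that the authors' deposited table calls, with knockout left of control; circles are replicate 1, triangles replicate 2 and lines group means, and each axis starts at 0. The 4 genes from Pcna to Gins1 have both knockout values above control, and the 9 from Cdk2 to Mcm10 have both below.

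**Figure D5:**
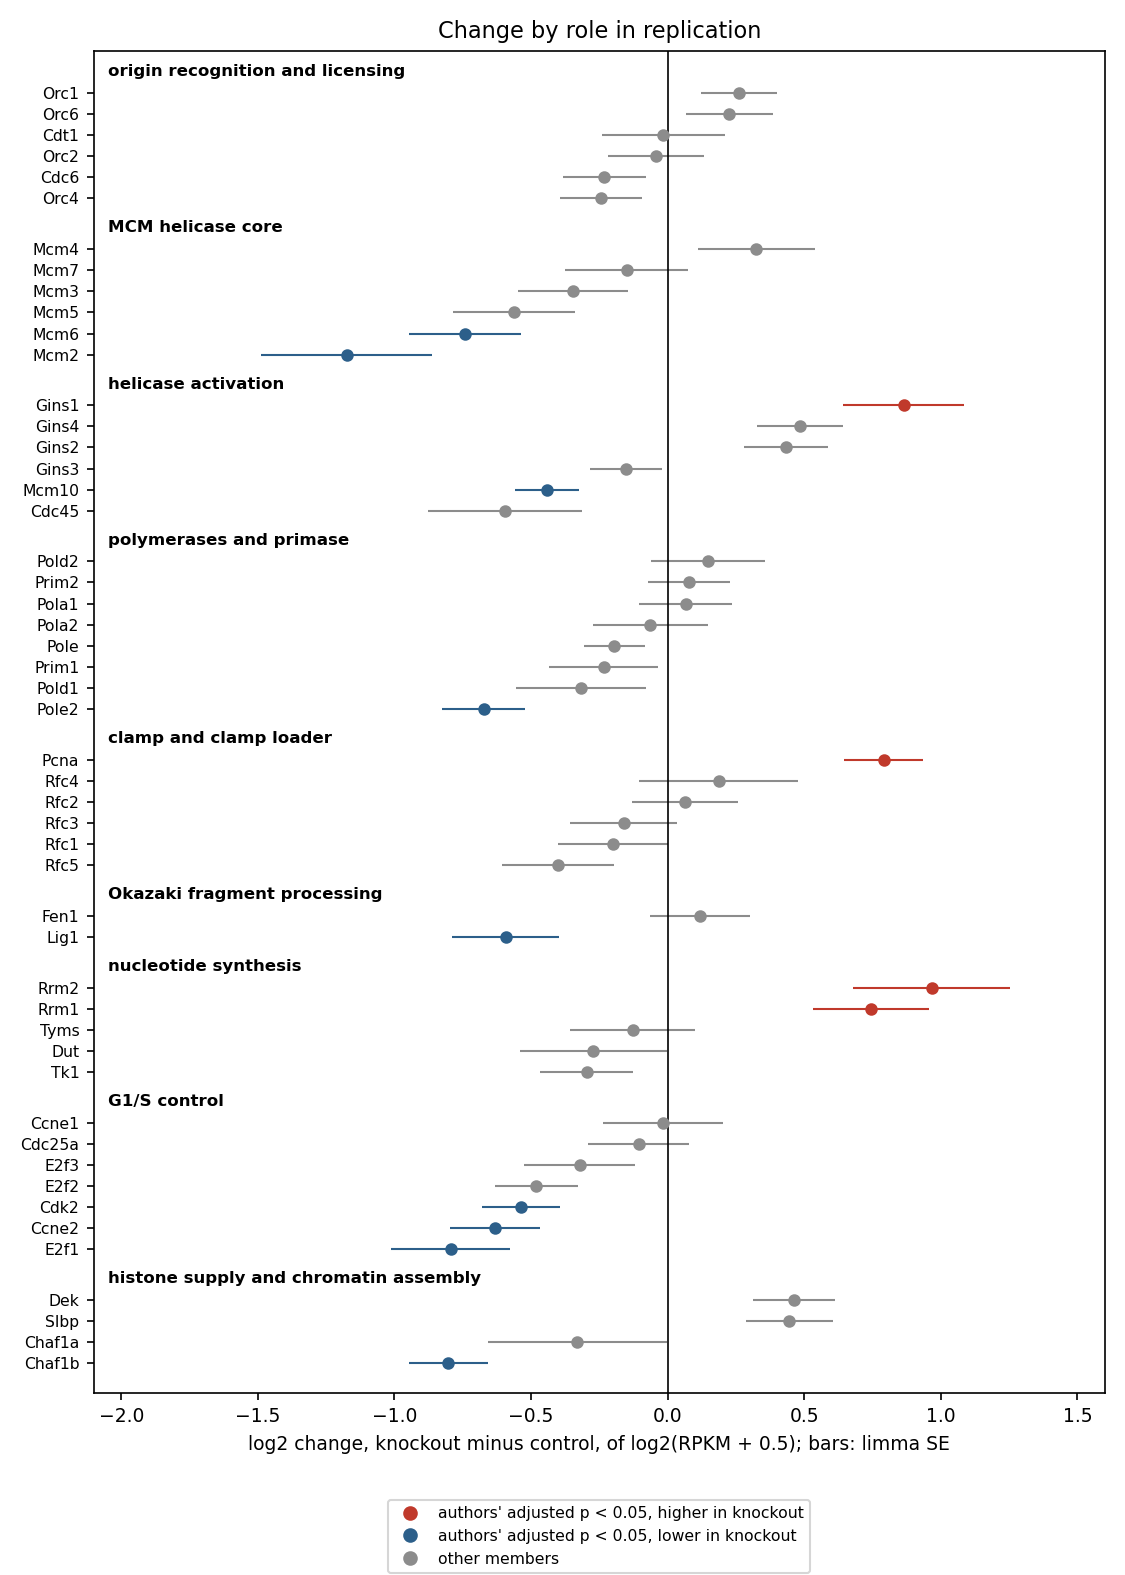
Log2 change, knockout minus control, on the log2(RPKM + 0.5) scale, with bars of 1 limma standard error, by role; red points are called higher and blue points lower in the authors' deposited table. The MCM core runs from Mcm4 at 0.32 to Mcm2 at -1.18, and all G1/S regulators lie below 0.

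Other genes of the pathway were taken from a list of 83 further genes, all of them listed. Of these 83, 1 (1.2%) had a call of higher and 8 (9.64%) of lower in the authors' deposited table. The shares over all genes there were 3.59% and 4.26%. The list's median log2 change was close to 0 (-0.003). Limma adjusted over all genes called 0 of the 83. At an unadjusted p under 0.05, limma counted 4 higher (4.82%) and 11 lower (13.3%), against 10.3% and 7.69% of all genes. Pole4, a small subunit of polymerase epsilon, had 112.6 and 133.0 RPKM in knockout, against 82.9 and 73.8 RPKM in control, and was the gene called higher in the authors' deposited table. Pclaf, the PCNA-associated factor listed as 2810417H13Rik, had 0.137 and 0.101 RPKM in knockout, against 0.798 and 1.01 RPKM in control. Its adjusted p in the authors' deposited table was 2.14e-15, the smallest on the list. Next was E2f8, an atypical repressor of the E2F family, with 0.0925 and 0.101 RPKM in knockout, against 0.404 and 1.05 RPKM in control. Pclaf and E2f8 were thus low everywhere and lowest in knockout. Pclaf rested on 17 and 8 reads in knockout, against 89 and 102 in control, and E2f8 on 13 and 9, against 51 and 119. Skp2, which marks the inhibitor p27 for breakdown, had 0.418 and 0.402 RPKM in knockout, against 0.696 and 1.05 RPKM in control. Cdc25b, a phosphatase of the G2 transition, had 2.66 and 3.12 RPKM in knockout, against 4.65 and 6.19 RPKM in control. Dscc1, part of an alternative clamp loader, had 0.105 and 0.110 RPKM in knockout, against 0.341 and 0.270 RPKM in control. Dscc1 rested on 12 and 8 reads in knockout, against 35 and 25 in control. Skp2, Cdc25b and Dscc1 were called lower in the authors' deposited table. Of the 8 called lower, Pclaf, E2f8, Skp2, Dscc1 and the retinoblastoma family gene Rbl1 had a mean under 1 RPKM. At that level 12.3% of all genes were called lower. The genes listed under G1/S transcription control, which include the G2 phosphatase Cdc25b, had 5 of 20 called lower (E2f8, Skp2, Cdc25b and the retinoblastoma family genes Rb1 and Rbl1) and 0 higher there, the fork and licensing genes 3 of 38 lower and 1 higher, and the nucleotide supply genes 0 of 25. Among the nucleotide supply genes, Rrm2b, the p53-dependent reductase subunit, had 1.149 and 1.816 RPKM in knockout, against 1.27 and 1.31 RPKM in control, and its groups overlapped.

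For comparison with a gene outside the lists, the proliferation marker Mki67 had 0.142 and 0.157 RPKM in knockout, against 0.976 and 1.98 RPKM in control. Its control mean was 9.87 times the knockout mean. Among replication members the largest such ratio was the 4.17 of Mcm10. On the list of further pathway genes it reached 7.617 for Pclaf and 7.515 for E2f8, both under 1 RPKM on average. The cell cycle genes Top2a and Ccnb2 stood at 7.06 and 6.325. The cyclin-dependent kinase inhibitor Cdkn1a (p21), which can bind PCNA, had 1171 and 1689 RPKM in knockout, against 949.7 and 1144 RPKM in control, and Cdkn1c (p57) had 80.0 and 95.05 RPKM in knockout, against 340.4 and 552.3 RPKM in control. Both inhibitors were more abundant than any replication member in the control libraries.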

How the data were processed

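The deposited table held 11603 genes. The submitters' processing notes name the build mm10 (GRCm38) and, with no versions, the tools STAR, Trim Galore, edgeR, Subread and featureCounts. The settings, the use of strand and any gene filter were not stated. The deposited values were taken as the authors' RPKM, since multiplying by exon length gave whole multiples of a library-specific step. Within 0.01 reads, 100% of values came out as whole reads. Columns beginning with Ct were taken as control and those beginning with Fl as knockout, since the labels do not spell out Fl. The q-value per gene is the authors' adjusted p as deposited, from a model that is not stated.

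The main test was limma 3.58.1 (R 4.3.3) using a trended prior variance, on log2(RPKM + 0.5). It was fitted to all genes with genotype as the only term, and adjusted by Benjamini-Hochberg over all of them at 0.05. The same fit was checked on simulated reads with equal dispersion for every gene. Those were scaled by the listed reads, so the authors' library sizes were not part of that check. That scale understates changes of genes with low values, so ratios are of group means in RPKM. The authors divided by library sizes that were 75.7% and 75.5% of the listed reads in knockout, against 85.9% and 92.4% in control. Scaling by the listed reads moves the median log2 change of all genes by -0.19.

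The members and lists were chosen with earlier results of these data known. Named in full were the 8 members of highest mean, those that limma called and the 2 of smallest p in each of 9 roles. E2f1 and other members were added after their values were seen. Alternatives were pseudocounts of 0.1 and 1, a mean of at least 1 RPKM, 2 other scalings, limma-voom on recovered reads, the replicate number as a block, and leaving out each library. Overlapping genes came from GENCODE M21 (GRCm38).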

Additional observations from a re-analysis of the deposited data

How the results depend on the processing

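The comparison rests on 2 libraries per group, and low members on few reads, so counting error is large there. For the 21 members named by rule, 226 values under 11 alternatives held 210 with the same direction and side of the threshold, 10 that passed the threshold and 6 that changed sign. With a replicate block, limma called 4 members higher and 7 lower over all genes, against 0 and 0 without it, and 5.09% of all genes higher and 3.56% lower. Adjusted p for the 10 named members among them ran from 0.0204 to 0.0474. Same-numbered libraries deviated together (correlation 0.394 over all genes), but 2 pairs and an unexplained number do not establish pairing. Scaling by the listed reads gave 3 members higher and 16 lower at an unadjusted p under 0.05, against 8 and 11, and a median log2 change of -0.291, against -0.156. It moves the median of all genes by -0.19, and gave Pold2 -0.085 and Orc6 -0.008. Leaving out each library gave a median log2 change of the members from -0.223 without control 1 to -0.079 without control 2. In these fits 1 group has 1 library, assumed to vary like the other group, and fewer samples pass the threshold less often. Pold2 ran from -0.056 to 0.351 and Fen1 from -0.105 to 0.341, with the cause not tested. Limma adjusted over all genes called 0 members under every alternative other than the block.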
